A study of Mus musculus with 6 samples.

Results

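Aldh1a3, Cyp26b1 and Akr1c18 encode enzymes that make or remove small lipid hormones, and all 3 were lower in bone marrow macrophages (BMMs) cultured with mogrol. BMMs are mouse precursors of osteoclasts, the bone-resorbing cells into which they fuse under the cytokine RANKL. The cells came from the marrow of mice aged 6 weeks (C57BL/6 in the labels, C57BL/6J in the methods), and every library of the series received 30 ng/ml RANKL for 5 days. The 3 control libraries had no mogrol and the 3 mogrol libraries had 20 μM mogrol, the triterpenoid that remains when the sugars are removed from the mogrosides of Siraitia grosvenorii. In the paper's staining of cultures after 5 days, 20 μM mogrol strongly reduced the number of osteoclasts formed under RANKL. The cultures were not sorted. The paper states for its data in general that they came from 3 or more independent experiments. For these libraries in particular, nothing says whether they came from separate mice or cultures, so the spread between them may be technical.

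The 3 genes were taken by symbol from the authors' deposited table of 109 genes. Both choices used the measured values: the table holds only genes that the authors had selected on the difference between these same 6 libraries, and the 3 genes were chosen from it with their results known. Their fold changes are therefore a description and carry no p-value. All 3 were among the genes called lower at an adjusted p-value under 0.05 and a log2 fold change below -1 in edgeR's quasi-likelihood test, as were 56.9% of the deposited genes. The call ended for Akr1c18 with TMM scaling (log2 fold change -0.83), for Aldh1a3 (-0.44) and Akr1c18 (-0.22) with median-of-ratios scaling, and for Cyp26b1 on log2(FPKM + 1) (-0.29), all short of -1. In 58.7% of the deposited genes the 3 mogrol libraries lay below the 3 control libraries. Counting both directions, the groups were separated in this way in all 109 genes, so non-overlap does not mark out the 3.

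Retinoic acid is made from vitamin A in consecutive oxidations. Retinol is taken up by the cell and oxidised to retinal, and an aldehyde dehydrogenase of the Aldh1a group then turns retinal into retinoic acid, a step that is not reversed. Retinoic acid enters the nucleus and activates the retinoic acid receptors, which are transcription factors, and it can change how osteoclast precursors differentiate. Enzymes of the Cyp26 group of cytochrome P450s hydroxylate it and so end the signal. Aldh1a3 therefore stands at the synthesis of retinoic acid and Cyp26b1 at its breakdown. Akr1c18 belongs to a separate family, the aldo-keto reductases. It is the mouse 20α-hydroxysteroid dehydrogenase, which reduces progesterone to a form that binds its receptor poorly, and it is best known from the ovary at the end of pregnancy.

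The genes lie on 3 chromosomes of the GRCm38 build, all on the minus strand, and each is protein coding. Aldh1a3 (ENSMUSG00000015134) spans chromosome 7, 66390890 to 66427517, Cyp26b1 (ENSMUSG00000063415) chromosome 6, 84571414 to 84593908, and Akr1c18 (ENSMUSG00000021214) chromosome 13, 4132615 to 4150654. The GENCODE M21 annotation gives the same starts and ends, and no other annotated gene overlaps any of the 3. Reads were assigned to whole genes, so the counts cover all exons, untranslated regions included, of 5, 5 and 2 annotated transcripts, in the same order. The summed exon lengths used for scaling were 4617, 5352 and 1207 bases.

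Akr1c18 lies among 7 other Akr1c genes on chromosome 13, between Akr1c14 and Akr1c13. Reads of such relatives can be misassigned, so the transcripts were compared with those of all other genes. Of the 1205 different stretches of 50 bases in the Akr1c18 transcripts, 7 occurred in another gene, Akr1cl on chromosome 1, and none of 100 bases did. In Aldh1a3, 1.15% of stretches of 50 bases were shared with other genes, and in Cyp26b1 none of 5343 were. Exact sharing with other genes was thus small for all 3 genes.

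The start regions of Cyp26b1 and Akr1c18 are shown because only these 2 genes had an entry among the promoter sequences used. Aldh1a3 had none. The sequences are RefSeq promoter windows (GRCm38.p6, minus strand, 5′ to 3′), cut where the first annotated GENCODE transcript begins. The capitals mark TATAAA, the letters searched for as a TATA box:

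Cyp26b1, chr6:84593909-84594060: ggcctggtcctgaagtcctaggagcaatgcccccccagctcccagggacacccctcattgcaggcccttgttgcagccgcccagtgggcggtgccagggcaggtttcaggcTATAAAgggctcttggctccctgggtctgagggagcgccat

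Akr1c18, chr13:4150655-4150896: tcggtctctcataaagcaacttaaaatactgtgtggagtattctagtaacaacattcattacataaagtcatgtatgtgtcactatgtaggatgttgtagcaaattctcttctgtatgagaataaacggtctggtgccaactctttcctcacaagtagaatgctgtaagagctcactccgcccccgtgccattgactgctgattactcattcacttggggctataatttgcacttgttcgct

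The Cyp26b1 stretch was rich in G and C, at 65.1% of its 152 bases, against 40.9% of 242 bases for Akr1c18. TATAAA began 41 bases before the first annotated GENCODE transcript start of Cyp26b1, but at base -139 from its RefSeq start. It was held by 13.6% of all 32851 promoter windows (250 bases before to 50 after the RefSeq start, both strands searched). The letters AGGTCA, a core element that nuclear receptors such as the retinoic acid receptors can bind, occurred in Akr1c18 at bases 28 to 33 after its RefSeq start, which lies outside the printed stretch, and in 16.3% of all windows. They did not occur in the Cyp26b1 window. Direct repeats of AGGTCA spaced by 5 or by 2 bases, the AP-1 letters TGACTCA (5.20% of windows) and the NF-κB motif were found in neither window. These are matches of letters in a short window, not measured binding.

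The counts rest on library totals between 18097882 and 18652439 reads, which were recovered from the deposited counts, FPKM values and gene lengths. Within a gene, levels are in RPM (reads per 1000000 reads of the recovered library total), and between genes in FPKM, which also divides by gene length in kilobases. Within groups the libraries differed by more than sampling noise, which does not show whether they came from separate cultures. Each library was used as 1 sample.

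Aldh1a3, the retinal dehydrogenase, was lower in mogrol-treated cells by more than the spread between libraries. Control libraries had 905, 1031 and 934 reads, and those with mogrol 329, 385 and 347. On the RPM scale this was 48.9, 55.3 and 51.3 against 17.8, 21.3 and 18.9. No mogrol library came near a control library, and the lowest control value was 2.30 times the highest mogrol value. Replicate 2 was the highest library of both groups for this gene. The mean level was 51.8 ± 3.24 RPM in control cells and 19.3 ± 1.78 RPM in mogrol-treated cells (SD, n = 3), so that 37.3% of the control level remained. The log2 fold change was -1.42 with a standard error of 0.106.

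Cyp26b1, the retinoic acid hydroxylase, showed the deepest difference of the 3 genes but had the fewest reads. The control libraries held 28, 19 and 38 reads and the mogrol libraries 6, 5 and 4. In RPM the levels were 1.51, 1.02 and 2.09 against 0.324, 0.276 and 0.218. The groups did not overlap, although control replicate 3 had 38 reads where control replicate 2 had 19. The means were 1.54 ± 0.535 and 0.273 ± 0.0534 RPM (SD, n = 3). This gave a log2 fold change of -2.46 with a standard error of 0.428.

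No deposited gene had fewer reads per library on average than Cyp26b1, with 16.7. Counting error alone would give a coefficient of variation of 18.8% in control libraries and 44.7% in mogrol libraries, and the observed ones were 34.7% and 19.6%. The exact 95% Poisson interval of the highest mogrol count, 6 reads, ran from 2.20 to 13.1 reads, and that of the lowest control count, 19 reads, from 11.4 to 29.7, so the 2 intervals overlapped. Over the summed reads, 85 against 15, the level in control cells was 5.62 times that in mogrol-treated cells, with an exact 95% interval for counting error from 3.23 to 10.5. Intervals of this kind cover counting error only. The deposited FPKM values of Cyp26b1 were 0.04 to 0.06 in the mogrol libraries, which 2 decimals resolve only coarsely. On log2(FPKM + 0.1) its log2 fold change was -1.34 and on log2(FPKM + 1) -0.29, since the added value is larger than the mogrol level itself.

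Akr1c18, the progesterone-reducing enzyme, had far more reads, and its level fell to 43.5% of that in control cells. The control libraries had 3084, 3440 and 3347 reads and the mogrol libraries 1471, 1340 and 1452. On the RPM scale control cells had 166, 184 and 184 and mogrol-treated cells 79.5, 74.0 and 79.0. Within each group the libraries lay close together, with a coefficient of variation of 5.71% in control and 3.91% in mogrol libraries, against 1.74% and 2.65% from counting error. The means were 178 ± 10.2 and 77.5 ± 3.03 RPM (SD, n = 3), and the log2 fold change was -1.20 with a standard error of 0.0864. When size factors were set on the deposited genes alone by the median of ratios, which centres a table made up of changed genes and raises its median log2 fold change from -1.09 to -0.11, the values were -0.22 for Akr1c18, -0.44 for Aldh1a3 and -1.50 for Cyp26b1.

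**Figure D1:**
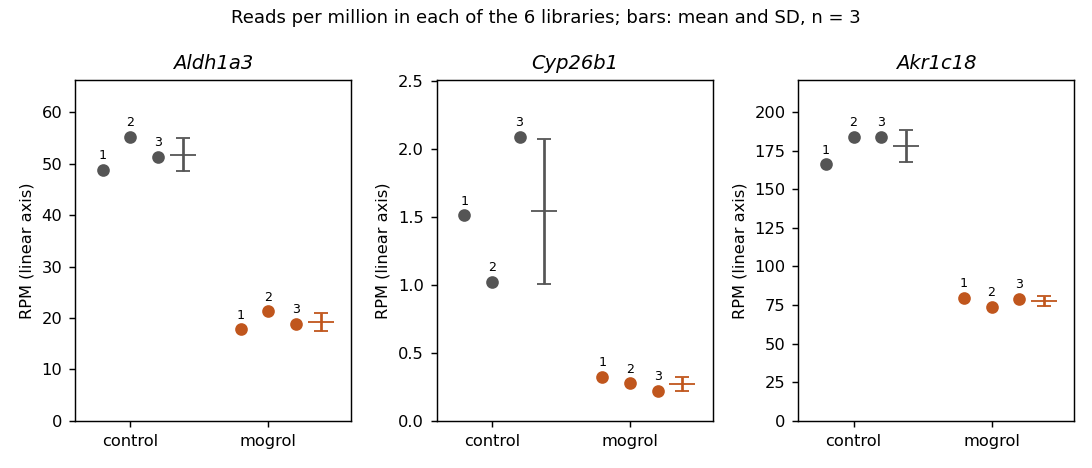
RPM of Aldh1a3, Cyp26b1 and Akr1c18 in each library (points numbered by replicate, linear axes from 0) with the mean and SD of the 3 control and 3 mogrol libraries beside them. All mogrol points lie below all control points in each panel; the control points of Cyp26b1 spread from 1.02 to 2.09 RPM, whereas those of Akr1c18 stay between 166 and 184 RPM.

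Per length, the 3 genes covered very different levels, and their order was the same in both groups. Akr1c18 had 148 ± 8.43 FPKM in control cells and 64.2 ± 2.51 FPKM in mogrol-treated cells (SD, n = 3). It was the gene with the fourth highest FPKM of the 109 in control cells and the fifth highest in mogrol-treated cells. Aldh1a3 had 11.2 ± 0.702 and 4.18 ± 0.386 FPKM, above the median of the deposited genes in each group, which was 2.93 FPKM in control cells. Cyp26b1 had 0.288 ± 0.0999 and 0.0510 ± 0.00997 FPKM and ranked 102 of 109 in control cells and 108 of 109 in mogrol-treated cells. The gaps between neighbours in this order were larger than the spread between libraries in both groups.

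Per length, transcripts of the synthesising enzyme Aldh1a3 outnumbered those of the degrading enzyme Cyp26b1 in every library. Other Aldh1a and Cyp26 genes were not analysed here, so this ratio is not the balance of synthesis and breakdown. The FPKM of Aldh1a3 exceeded that of Cyp26b1 by factors of 37.5, 62.9 and 28.5 without mogrol and of 63.6, 89.3 and 101 with it. The mogrol values were higher in all 3, but control replicate 2 and mogrol replicate 1 nearly met, and the ratio carries the counting error of Cyp26b1. Akr1c18 had 13.0, 12.8 and 13.7 times the FPKM of Aldh1a3 in control libraries and 17.1, 13.3 and 16.0 times in mogrol libraries. In that pair mogrol replicate 2 lay within the range of the control libraries.

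Of 37 genes listed for retinoid uptake, storage, oxidation, breakdown, transport and receptors, 3 were in the deposited table, and all 3 were called lower, where 56.9% of the deposited genes were. Besides Aldh1a3 and Cyp26b1 this was Stra6l (ENSMUSG00000028327, chromosome 4, 45848664 to 45887008), which encodes a membrane receptor for the retinol-binding protein that carries vitamin A in blood. Stra6l had 206, 248 and 243 reads in control libraries and 82, 120 and 76 in mogrol libraries. Mogrol replicate 2 was its highest mogrol library, as it was for Aldh1a3 and for the osteoclast genes Ctsk and Ckb. It was not the highest for Akr1c18 or Cyp26b1. The level was 12.6 ± 1.27 RPM in control cells and 5.07 ± 1.36 RPM in mogrol-treated cells (SD, n = 3). On the log2 scale the difference was -1.31 with a standard error of 0.172. The 3 had a median log2 fold change of -1.42, against -1.09 for all 109 genes and -1.41 for the 64 genes with a value below 0.

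**Figure D2:**
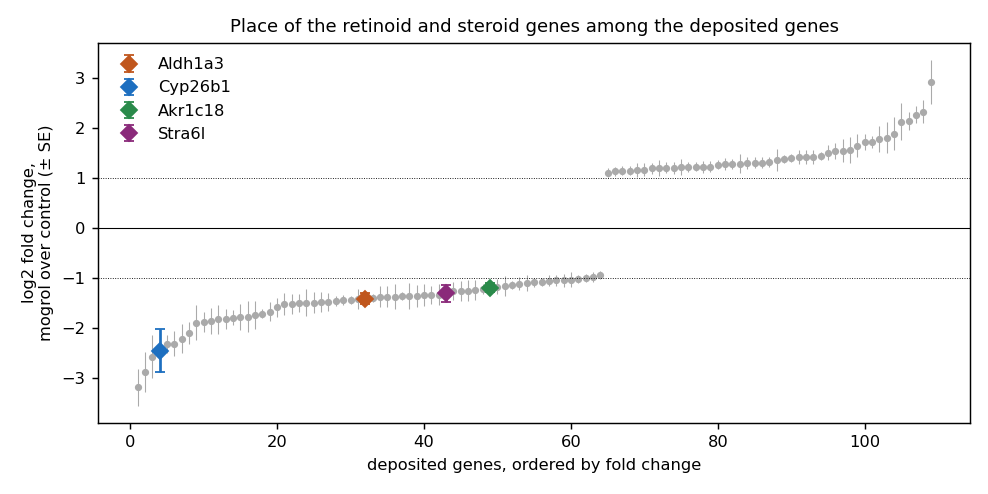
Log2 fold changes (mogrol over control, ± SE) of the 109 deposited genes in ascending order, with Aldh1a3, Cyp26b1, Akr1c18 and Stra6l marked and dotted lines at -1 and 1. Cyp26b1 stands far to the left at -2.46 with a wide error bar, whereas Aldh1a3 (-1.42), Stra6l (-1.31) and Akr1c18 (-1.20) stand in the flat middle and right part of the 64 lower genes.

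Among the 64 lower genes Cyp26b1 had the fourth largest decrease, Aldh1a3 ranked 32 and Akr1c18 ranked 49. The other 34 genes of the retinoid list, the retinoic acid receptors and the retinol dehydrogenases among them, were not analysed here. Of 38 genes listed for steroid and progesterone metabolism, Akr1c18 was the 1 deposited gene. Of 14 genes listed as responsive to retinoic acid, the 1 deposited gene was Cyp26b1, which retinoic acid induces in many cells.

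The deposited annotation joins the 3 genes in 1 further way. The term oxidation-reduction process was given to all 3 and to 8 deposited genes in all. Aldh1a3 and Akr1c18 also shared the terms retinal dehydrogenase activity and retinal metabolic process, which no other deposited gene had. Akr1c18 carried progesterone catabolic process as well as negative regulation of retinoic acid biosynthetic process, and Cyp26b1 carried retinoic acid catabolic process.

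With the wider term oxidoreductase activity, 6 other deposited genes had a redox annotation. Of these, 4 were called lower and 2 higher, where 56.9% of all deposited genes were called lower and 41.3% higher. Cyp2s1, another cytochrome P450, had 2073, 2235 and 2130 reads in control libraries and 662, 631 and 646 in mogrol libraries, a log2 fold change of -1.72 with a standard error of 0.0927. Dio3, the deiodinase that inactivates thyroid hormone, had 162, 189 and 182 reads against 51, 59 and 66, a log2 fold change of -1.59 with a standard error of 0.194. It is, like Cyp26b1, an enzyme that removes a ligand of a nuclear receptor. The other lower genes were P3h2, a collagen prolyl hydroxylase, at -1.53 and Acad10, an acyl-CoA dehydrogenase family member, at -1.23. The higher genes were Cybb, the catalytic subunit of the phagocyte NADPH oxidase, at 1.37 and Alox5ap, which assists leukotriene synthesis, at 1.21. Cyp2s1, P3h2 and Alox5ap overlap genes on the opposite strand, and whether counting used strand is not given in the sources used here.

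**Figure D3:**
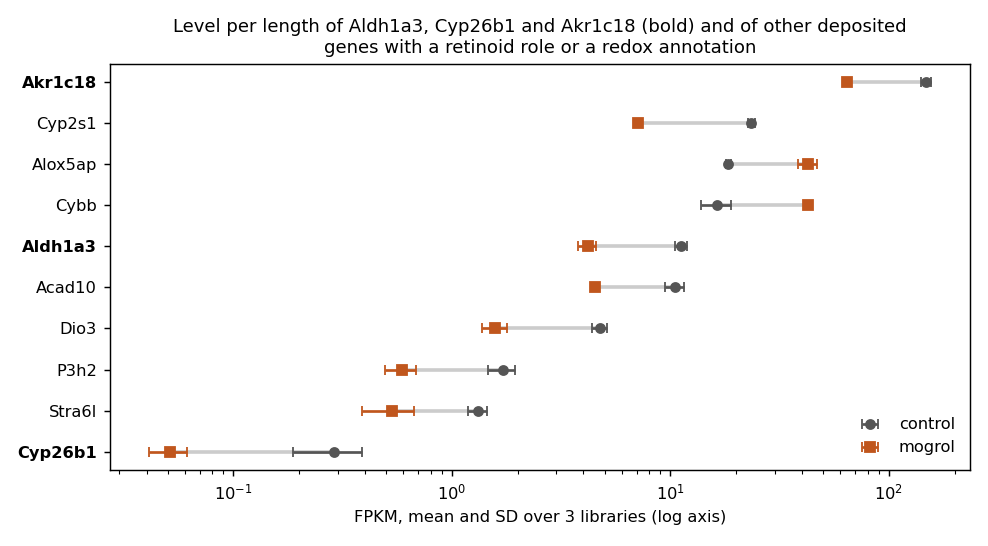
Mean FPKM (log axis) with SD over 3 libraries in control (circles) and mogrol (squares) cells for Aldh1a3, Cyp26b1 and Akr1c18 (bold) and for the other deposited genes with a retinoid role or a redox annotation. Akr1c18 is at the top with 148 and 64.2 FPKM and Cyp26b1 at the bottom with 0.288 and 0.0510 FPKM; Alox5ap and Cybb are the 2 genes whose squares lie to the right.

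The deposited genes with the most similar pattern over the 6 libraries were found by the root mean square distance of centred log2 values. Nearest to Aldh1a3 were Postn, a matrix protein of bone-forming and connective tissue cells, at a distance of 0.0812, the integrin gene Itgb7 at 0.0874 and Lrrc15 at 0.0946. Postn went from 334 ± 5.16 to 123 ± 4.13 RPM (SD, n = 3). Nearest to Akr1c18 were Acad10 at 0.0447, Angpt2 at 0.0662 and Thbs2 at 0.0742. Of these, Angpt2 overlaps the gene Mcph1 on the opposite strand. Acad10 shared with Akr1c18 a low control replicate 1, at 1047 reads against 1247 and 1245. That library was also the lowest control for Aldh1a3, Stra6l and Ctsk, but not for Cyp26b1 or Ckb. The distance between Aldh1a3 and Akr1c18 themselves was 0.159, and 11 genes lay nearer to Aldh1a3.

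The pattern of Cyp26b1 was less like that of any other gene. Its nearest genes were Gm13889 at 0.359, Corin at 0.429 and Hs3st4 at 0.452, all several times farther than those of the other 2. Hs3st4, a heparan sulfate sulfotransferase, was as sparse as Cyp26b1, with 1.56 ± 0.317 RPM in control cells and 0.256 ± 0.117 RPM in mogrol-treated cells (SD, n = 3). Gm13889, Corin and Hs3st4 overlap other annotated genes. All distances are over 6 libraries and hold both the difference between the groups, for which every deposited gene had been selected, and the spread within groups. Hs3st4 lay at 0.452 although its log2 fold change, -2.58, was close to the -2.46 of Cyp26b1. The distances of Cyp26b1 also carry the counting error of its 4 to 38 reads per library.

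Markers of several cell types differed between the same libraries, and in bulk RNA fewer cells of a type cannot be told apart from less RNA per cell. Of 14 osteoclast markers the table holds Ctsk, the bone-degrading protease cathepsin K, and Ckb, a creatine kinase, both called lower, with a summed level of 12507 to 13966 RPM in control and 6117 to 6460.2 RPM in mogrol libraries. Of 28 stromal and osteoblast markers it holds 11, of which 10 were called lower, with 1656 to 1718 RPM in control and 672 to 729 RPM in mogrol libraries. Col3a1 and Thbs2 were the most abundant of these, at 602 and 409 RPM in control cells. Of 14 macrophage markers it holds 6, all called higher, with 246 to 322 RPM in control and 651 to 706 RPM in mogrol libraries, led by Cybb and Cx3cr1. Of 8 endothelial markers it holds 1, Angpt2, at 24.0 to 25.1 and 10.8 to 11.9 RPM. Over all deposited genes 56.9% were called lower and 41.3% higher. None of the markers in the table was at 0 in any library, and the others were not analysed here. The part of cell composition in the values of the 3 enzyme genes was not tested.

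The 3 genes were also set against markers within each library. Ctsk and Ckb are the 2 of 14 osteoclast markers that passed the selection of the table, so they do not stand for the whole list. The same holds for the 11 of 28 stromal and osteoblast markers. All were selected on the difference between these groups, so small differences from them are partly set by that selection. The log2 ratio of Akr1c18 to Ctsk was -5.45 ± 0.087 in control and -5.57 ± 0.11 in mogrol libraries (SD, n = 3), a difference of -0.12 that is close to the spread between libraries. For Aldh1a3 the ratio was -7.23 ± 0.036 and -7.58 ± 0.091, a difference of -0.35. For Cyp26b1 it was -12.36 ± 0.62 and -13.74 ± 0.28, a difference of -1.38. With Ckb in place of Ctsk the differences were -0.17 for Akr1c18, -0.39 for Aldh1a3 and -1.42 for Cyp26b1. With the sum of the 11 stromal and osteoblast markers they were 0.06 for Akr1c18, -0.16 for Aldh1a3 and -1.19 for Cyp26b1. For Akr1c18 the direction thus depended on the marker, and the difference from the stromal sum was smaller than the spread between libraries.

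**Figure D4:**
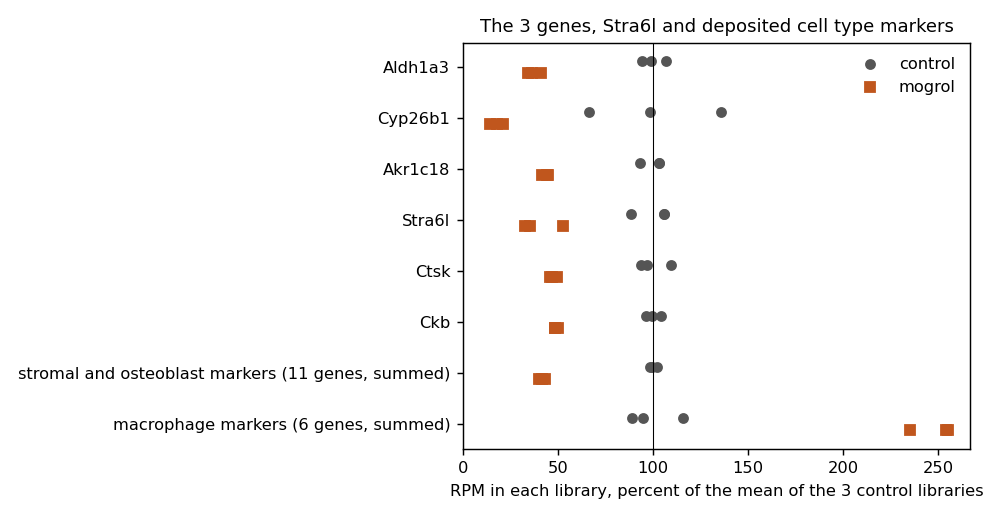
RPM in each library as a percentage of the mean of the 3 control libraries, for the 3 genes, Stra6l, the osteoclast markers Ctsk and Ckb, and the summed stromal and osteoblast (11 genes) and macrophage (6 genes) markers. Mogrol squares of Akr1c18 (41.5% to 44.6%) lie just under those of Ctsk (46.0% to 49.3%) and overlap those of the stromal sum (39.9% to 43.3%). Those of Aldh1a3 (34.3% to 41.1%) reach the stromal range in mogrol replicate 2 alone. Those of Cyp26b1 (14.1% to 21.1%) lie farthest left, and the macrophage sum lies at 235% to 255%.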

How the data were processed

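The authors sequenced 3 control and 3 mogrol libraries of RANKL-induced BMMs. Clean reads were aligned with Hisat2 (v2.0.1). The submitters' processing notes also name cutadapt 1.9.1, HTSeq 0.6.1 and GRCm38, and the use of strand is not given in the sources used here. The deposited table holds 109 genes with raw read counts, the authors' FPKM values rounded to 2 decimals, and a mean normalized count, a signal that the authors scaled by size factors (their comparison used DESeq2). Its columns of fold changes, standard errors and p-values hold the authors' own comparison and were not used. Of the 109 identifiers, all are in GENCODE M21 and 107 have the same start and end, and the 3 enzyme genes are among these.

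Library totals were recovered to within 36 reads. Counts were fitted with edgeR 4.0.16 (R 4.3.3; quasi-likelihood, recovered totals as library sizes, no filter, prior count 0.125, Benjamini-Hochberg adjustment over 109 genes). To obtain a standard error, each absolute log2 fold change was divided by √F. Alternatives used DESeq2 1.42.0, limma 3.58.1, other size factors, pseudocounts and a filter at 50 reads. The fits were tested on simulated counts in which most genes did not change. The deposited table holds only selected genes, so that test does not cover its make-up. Within groups, the chi-square per degree of freedom between pairs of libraries was 5.23 to 19.6 over the deposited genes. The 3 genes, gene lists and motifs were chosen with earlier results of these data known. Named genes are the 3 enzyme genes, deposited genes of the lists or with the redox terms, the 2 most abundant markers of a list, and the 3 nearest patterns per gene (log2 of RPM + 0.01).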

Additional observations from a re-analysis of the deposited data

How the results depend on the processing

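The log2 fold changes of Aldh1a3, Cyp26b1 and Akr1c18 were negative under every alternative that was run. With each library left out in turn they stayed between -1.50 and -1.37 for Aldh1a3, -2.69 and -2.18 for Cyp26b1, and -1.25 and -1.17 for Akr1c18. Scaling on the deposited genes alone centres a table of genes selected as changed: TMM gave -1.05 for Aldh1a3 and -0.83 for Akr1c18, and median-of-ratios size factors gave -0.44, -1.50 for Cyp26b1 and -0.22. These scalings raised the median log2 fold change of the 109 genes from -1.09 to -0.72 and -0.11. The size factors implied by the deposited mean counts, which lie 0.07 higher (log2) in mogrol libraries against the totals, gave -1.27 for Akr1c18. Limma on log2(FPKM + 1) gave -1.24 for Aldh1a3 and -0.29 for Cyp26b1, and on log2(FPKM + 0.1) -1.34 for Cyp26b1, whose level is below either pseudocount in mogrol libraries and which moved most under these.

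Of the deposited genes 45 were called higher and 62 lower. TMM left 36 lower (55.6% of calls higher, against 42.1%), median of ratios 8 lower (84.9% higher), and limma on log2(FPKM + 1) 27 lower and 25 higher. Leaving out libraries gave 60 to 63 lower and 45 higher. The filter at 50 reads removed Cyp26b1, so it has no value there. With the replicate number as a block the log2 fold changes were -1.42, -2.46 and -1.20, with 62 lower and 45 higher calls. Deviations of same-numbered libraries correlated at 0.085, 0.203 and 0.069 across genes, which is not above 0.1 in every pair, and no label pairs the libraries. Control replicate 3 correlated best with mogrol replicate 1, at 0.080, and each of the other libraries with its own number. Depth limits Cyp26b1 alone of the 3 genes.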
